A study of Homo sapiens with 60 samples.

Results

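Zinc handling was followed through 8 genes in HT29 cells, an epithelial line from a human colorectal adenocarcinoma, after 24 h with herbal extracts. The genes are the metallothioneins MT1E, MT1F, MT1G, MT1X and MT2A, the zinc exporter SLC30A1, the zinc importer SLC39A10 and the metal sensor MTF1. They were taken by symbol from a table of 60675 genes, and each symbol matched 1 Ensembl ID. The 60 libraries held the DMSO vehicle (3 libraries) and 8 extracts at a high, a medium and a low dose. Yijin-tang and Soshiho-tang are decoctions of several herbs and were given as water extracts. The ethanol extracts came from single herbs: Aucklandiae Radix and Polygalae Radix, Zizyphi Semen and Longan Arillus, and Schisandrae Fructus and Liriopis seu Ophiopogonis Tuber. Doses were 500, 100 and 20 µg/mL, except 380, 76 and 15.2 µg/mL for Polygalae Radix and 370, 74 and 14.8 µg/mL for Aucklandiae Radix. There were 3 libraries at a dose of most extracts, 2 for Soshiho-tang (replicates 2 and 3) and 1 for Polygalae Radix and Aucklandiae Radix. The sample labels give 0.1% DMSO for the vehicle, the series text gives 2%, and no percentage was found for the extract libraries.

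Metallothioneins are small, cysteine-rich proteins that hold zinc and copper. When free zinc in a cell rises, MTF1, a zinc finger transcription factor, binds metal response elements in the promoters of metallothionein genes and of SLC30A1 and raises their transcription. SLC30A1 (ZnT1) moves zinc out of the cytosol through the plasma membrane, and SLC39A10 (ZIP10) brings it in. In the gut epithelium these genes serve zinc uptake and protection from metals.

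The metal response element core was looked for in the bases before the transcription starts, because SLC30A1 and the metallothioneins differed in direction in the results that follow. The sequences are RefSeq's (GRCh38.p14), written 5′ to 3′ on the strand of the gene, and capitals mark each match to TGCACNC or TGCGCNC on either strand. The stretch before MT1X is chr16:56682220-56682423 on the plus strand, and that before SLC30A1 is chr1:211579162-211579411 on the minus strand. RefSeq places the start of SLC30A1 upstream of that in GENCODE release 29 (211578742), so this window does not adjoin the GENCODE gene. The MT2A window lies inside the first exon of a longer transcript in GENCODE release 29, so only 2 stretches of 30 bases are shown from it (3 of its 7 matches), chr16:56608427-56608456 and chr16:56608519-56608548 on the plus strand.
MT1X: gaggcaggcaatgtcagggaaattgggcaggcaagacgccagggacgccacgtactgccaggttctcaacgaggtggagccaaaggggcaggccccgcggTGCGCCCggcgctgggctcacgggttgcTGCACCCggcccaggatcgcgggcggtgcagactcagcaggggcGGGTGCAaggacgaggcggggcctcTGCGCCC
MT2A first stretch: cgggTGCGCCCggcccagTGCGCGCggccg
MT2A second stretch: ggcggggctttTGCACTCgtcccggctctt
SLC30A1: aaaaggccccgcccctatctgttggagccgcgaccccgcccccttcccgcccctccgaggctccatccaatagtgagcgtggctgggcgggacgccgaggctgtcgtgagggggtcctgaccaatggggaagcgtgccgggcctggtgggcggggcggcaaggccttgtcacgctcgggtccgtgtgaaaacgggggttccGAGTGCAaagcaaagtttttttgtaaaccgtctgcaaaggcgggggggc

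In the 250 bases before the RefSeq start, MT2A held 7 matches, and 0.0313% of 35116 RefSeq promoter windows held as many. MT1X held 4 matches, and 0.37% of the windows held as many. SLC30A1 held 1, which is common: 24.8% of the windows held at least 1. The windows of SLC39A10 and MTF1 held 0. MT1E, MT1F and MT1G had no entry in the promoter table. The windows of MT2A, MT1X and SLC30A1 held 73.2%, 70% and 66.4% G and C bases, beside a mean of 57.2% over all windows. The shares were taken over windows of any such content. A match is a run of letters, not a measured binding site.

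The metallothioneins lie together on chromosome 16 of GRCh38: MT2A at 56608199 to 56609497, MT1E at 56625475 to 56627112, MT1F at 56657694 to 56660698, MT1G at 56666731 to 56668065 and MT1X at 56682424 to 56684196. MT1G is on the minus strand and the other 4 on the plus strand. The positions here are those of GENCODE release 29. SLC30A1 (chromosome 1, 211571568 to 211578742) and MTF1 (chromosome 1, 37809567 to 37859620) are on the minus strand, and SLC39A10 (chromosome 2, 195575977 to 195737702) is on the plus strand. Metallothionein coding sequences are much alike, and counting could in principle have split reads between them. The expected counts of all 8 genes were whole numbers (within 1e-09) in 60 of 60 libraries, while 10.1% of the values of all genes were not whole.

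Library totals ran from 18161717 to 35128954 expected counts, and levels are given as CPM, the usual scaling of a count to that total. Of 8 markers of gut epithelium, EPCAM, CDH1, KRT8, KRT18 and KRT20 were at 172 CPM or more and VIL1 at 56.3 CPM or more in all 60 libraries. The intestinal transcription factors were low, CDX2 at 1.09 to 5.82 CPM and CDX1 at 0.0778 to 1.37 CPM. Fibroblast markers were low: COL1A2, COL3A1, DCN, PDGFRB and THY1 reached at most 0.199 CPM. COL1A1 was at 0.792 to 2.96 CPM and LUM at 0.358 to 1.43 CPM, and the 7 markers summed to 1.54 to 3.78 CPM. Of 10 markers of red blood cells and leukocytes, LYZ was at 971 to 1809 CPM in every library. The other 9, grouped after the values were seen, summed to 23.8 CPM in replicate 3 of Soshiho-tang high dose and to 0.106 to 0.973 CPM in the other 59 libraries. In that library HBB was at 3.30, HBA1 at 3.28 and LAPTM5 at 4.61 CPM. Replicate 2 of Yijin-tang low dose stood apart in another way: 86 ribosomal protein genes held 11.4% of its counts, against 3.69% to 5.84% in the other 59. Results that rest on these 2 libraries are given with and without them. The first part of the library names sets the vehicle (C1) apart from every extract (8 to 11), and the labels do not say what this part marks. Against the vehicle, an effect of extract and one of library set cannot be told apart, while comparisons between doses of 1 extract lie within a set.

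MT1E and MT2A supplied nearly all metallothionein transcripts in these cells. Per kilobase of exon, the vehicle levels were 54.3 ± 11.0 CPM (SD, n = 3) for MT1E and 17.9 ± 4.25 for MT2A. SLC30A1 followed at 5.59 ± 0.831 CPM per kilobase, SLC39A10 at 5.17 ± 0.237 and MTF1 at 4.78 ± 0.251, and the libraries of these 3 genes overlapped, so their order is within the spread. MT1X was at 1.53 ± 0.169, MT1G at 0.385 ± 0.145 and MT1F at 0.336 ± 0.186, and the last 2 overlapped. The exon length used joins all annotated exons of a gene, and for MT2A and MT1X it covers the whole gene. Where the transcript present is shorter, the level per kilobase is too low. The order of the metallothioneins against the 3 longer genes thus depends on the length used. Fewer cells with a transcript and less of it per cell cannot be told apart in these bulk samples. All 8 genes passed the filter on low counts. MT1F and MT1G had 1 to 27 and 1 to 12 counts in a library, so their fold changes are poorly determined. Of the other 7 metallothionein genes, MT1A reached at most 1.80 CPM and MT3 at most 0.880, while MT1B, MT1M and MT4 had 0 counts in 60 libraries and MT1H and MT1L at most 2 in any library.

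**Figure D1:**
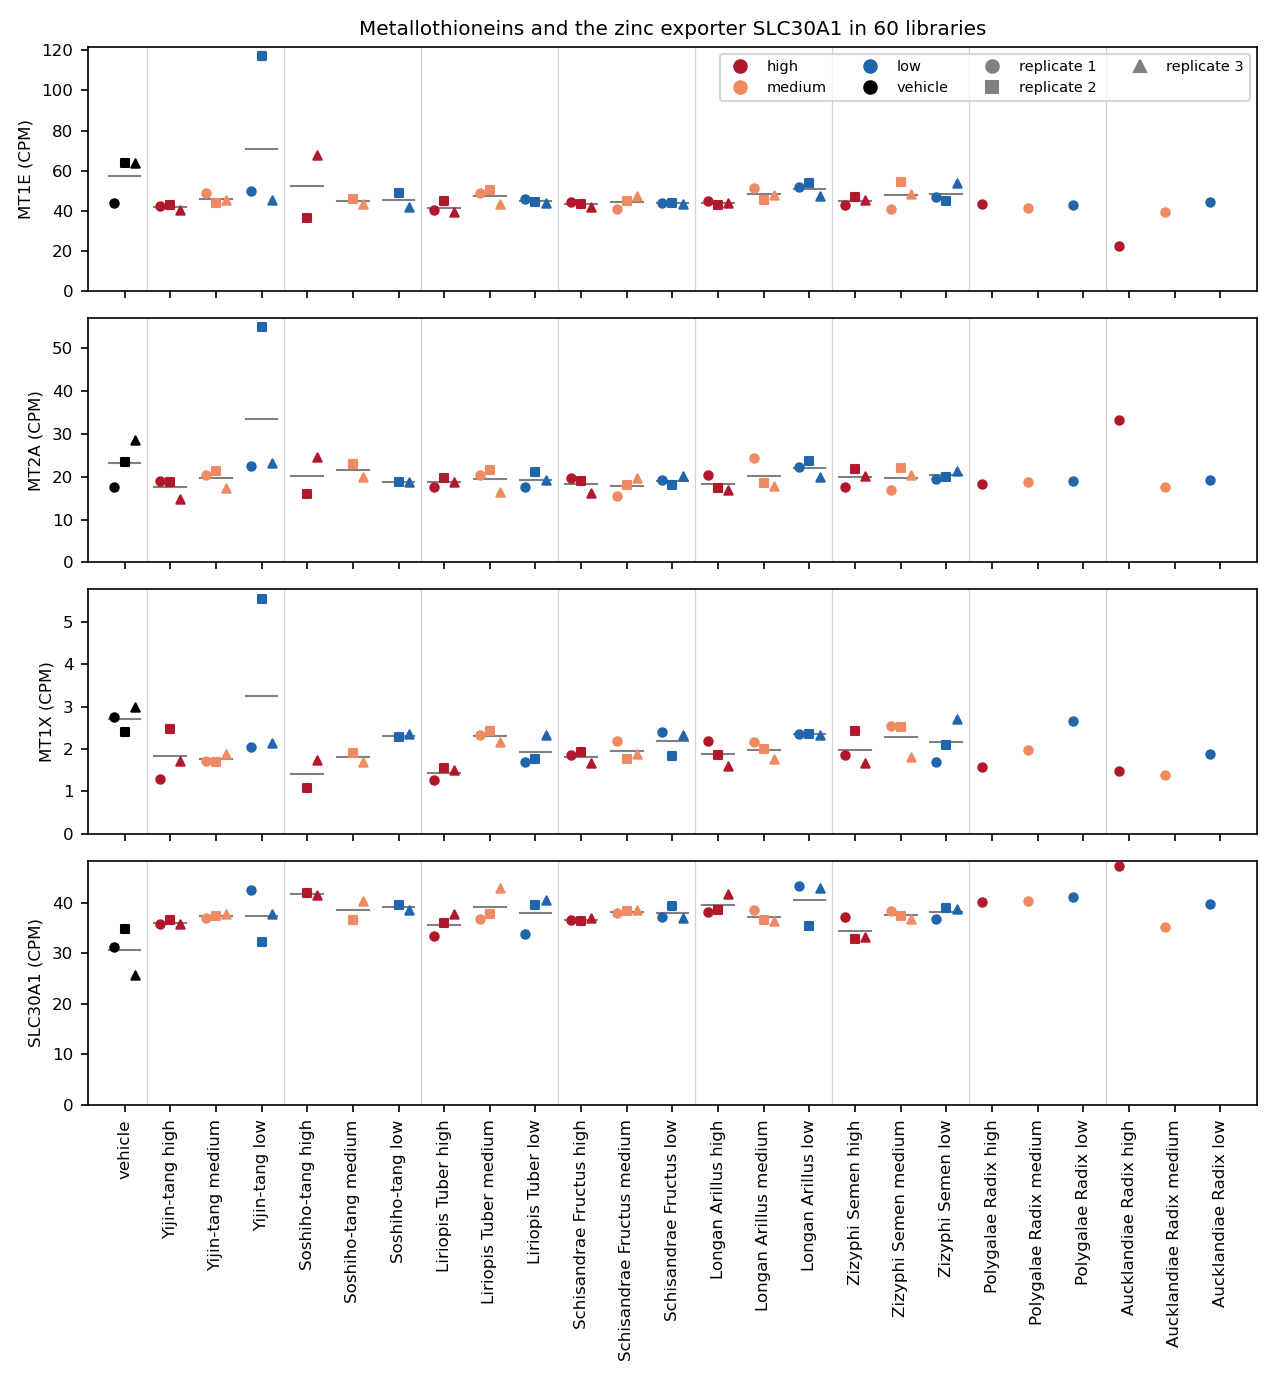
Level of MT1E, MT2A, MT1X and SLC30A1 in each of 60 libraries (y axes, CPM on a linear scale from 0), by group (x axis). Colours mark the dose, shapes the replicate number, and grey lines the group means where a group has more than 1 library. MT1E, MT2A and MT1X peak at 117, 55.1 and 5.55 CPM in Yijin-tang low dose replicate 2, and SLC30A1 is lowest in the vehicle.

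SLC30A1 was higher in every extract group than in the vehicle. In the vehicle it was at 31.2, 34.8 and 25.8 CPM in replicates 1, 2 and 3. Over the 57 extract libraries it was above the vehicle mean of 30.6 in 57 and above the highest vehicle library in 52. The highest levels were in Aucklandiae Radix high dose at 47.3 CPM and Longan Arillus low dose replicate 1 at 43.3 CPM. Many extract groups overlapped one another, with means from 34.4 CPM for Zizyphi Semen high dose to 47.3 CPM.

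Against the vehicle, tested with edgeR's quasi-likelihood test and Benjamini-Hochberg adjustment over all 16890 genes kept by the filter, the log2 fold change of SLC30A1 was 0.17 to 0.46 in all 18 replicated dose groups. It passed the adjusted threshold of 0.05 in 6 of them. These comparisons share the same 3 vehicle libraries and are not independent of one another. The clearest was Soshiho-tang high dose, where both libraries (42.1 and 41.6 CPM) lay above all vehicle libraries and the rise was 0.46 ± 0.07 (SE, adjusted p = 2.41e-05). There 2 of the 8 genes were called, against 7.93% of all genes tested. Longan Arillus rose to 38.2, 38.6 and 41.9 CPM at the high dose, by 0.33 (adjusted p = 0.0265), where 1 of 8 was called against 0.0829% of all genes. At its low dose (43.3, 35.4 and 43.0 CPM) the rise was 0.33 (adjusted p = 0.0250), with 1 of 8 called against 0.107%. The 2 doses of Longan Arillus thus gave nearly the same difference.

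The remaining 3 calls of SLC30A1 were at the low or medium dose. With Yijin-tang low dose (42.5, 32.3 and 37.7 CPM) the difference was 0.29 (adjusted p = 0.00835), and 1 of 8 genes was called against 12.1% of all genes (1.96% without the 2 libraries that stand apart). With Liriopis seu Ophiopogonis Tuber medium dose (36.8, 37.8 and 42.9 CPM) it was 0.28 (adjusted p = 0.0481), with 1 of 8 called against 0.373%. With Schisandrae Fructus medium dose (37.9, 38.3 and 38.6 CPM) it was 0.29 (adjusted p = 0.0295), with 1 of 8 called against 0.474%. In all of these groups but Yijin-tang low dose, the extract libraries did not overlap with the vehicle.

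The fit shares the spread of a gene over all groups. In the 3 vehicle libraries SLC30A1 had an SD of 4.55 CPM on a mean of 30.6 CPM. The size of the SLC30A1 differences leans on vehicle replicate 3, the lowest library for this gene. Without it, the rise with Soshiho-tang high dose was 0.37 (adjusted p = 0.000806) and was still called, as it was without each other library of the comparison. The other 5 calls were lost without it, with differences of 0.19 to 0.24. Without vehicle replicate 1 the calls for Longan Arillus at both doses and for Liriopis seu Ophiopogonis Tuber were lost as well (adjusted p = 0.0526 to 0.0700). For Longan Arillus the call was lost in 5 of 6 fits with 1 library left out at the high dose, including each of its own 3 libraries, and in 4 of 6 at the low dose, including its replicates 1 and 3. With only Soshiho-tang high dose and the vehicle in the fit, SLC30A1 had an adjusted p of 0.0511. Without the 2 libraries that stand apart, SLC30A1 was called higher in 16 of 18 dose groups, with log2 fold changes of 0.16 to 0.49.

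Within an extract, SLC30A1 was at similar levels at the high and the low dose. Its log2 fold change between them was -0.13 to 0.16 over 6 extracts and was called in 0 of 6 by edgeR or DESeq2. The largest was with Soshiho-tang, 41.8 CPM on average at the high and 39.1 at the low dose, at 0.16 ± 0.08 (95% interval 0.00 to 0.33, adjusted p = 0.288). At the high dose, Yijin-tang lay below Soshiho-tang by 0.24 on the log2 scale (interval -0.39 to -0.09, adjusted p = 0.0593). In that comparison 0 of 8 genes were called by edgeR, against 3.72% of all genes, and 1 had an unadjusted p under 0.05. DESeq2 called 1, SLC30A1, and its share over all genes is not given here.

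Most fold changes of the metallothioneins lay below 0, few passed the test, and the vehicle libraries themselves differed. MT1E was at 43.7, 64.0 and 63.7 CPM in vehicle replicates 1, 2 and 3. Over the 57 extract libraries it had a lowest value of 22.5 CPM, and 22 lay below the lowest vehicle library and 2 above the highest. Vehicle replicate 1 thus lay among the extract libraries and replicates 2 and 3 above nearly all of them. The log2 fold change of MT1E was -0.51 to 0.34 in the 18 comparisons, below 0 in 17, and called in 0 by edgeR, with an unadjusted p under 0.05 in 5. In the high dose comparisons the unadjusted p was under 0.05 with Yijin-tang, Liriopis seu Ophiopogonis Tuber, Schisandrae Fructus and Longan Arillus, and the adjusted p ranged from 0.384 to 0.858.

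MT2A was at 17.6, 23.5 and 28.6 CPM in the vehicle and had a median of 19.4 CPM over all libraries. Of 57 extract libraries, 10 lay below the lowest vehicle library, 2 above the highest and the others within the vehicle range. Its log2 fold change was below 0 in 17 of 18 comparisons (-0.43 to 0.56) and called in 0 by edgeR, with an unadjusted p under 0.05 in 1. MT1X was at 2.76, 2.39 and 2.99 CPM in the vehicle, and 49 of 57 extract libraries lay below the lowest of these. Its log2 fold change was below 0 in 17 of 18 comparisons. It fell by 0.92 ± 0.30 with Soshiho-tang high dose (1.08 and 1.74 CPM, adjusted p = 0.0467), the single call of a metallothionein against the vehicle. That call was lost in 4 of 5 fits with 1 library left out: without vehicle replicate 1 or 3 or Soshiho-tang high dose replicate 2 or 3 (adjusted p = 0.0699 to 0.351). With Liriopis seu Ophiopogonis Tuber high dose MT1X was at 1.27, 1.55 and 1.50 CPM, all below the vehicle, with a log2 fold change of -0.97 ± 0.26 that did not pass the adjustment (adjusted p = 0.0916).

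With all 54 libraries, 0 of 8 genes were called by edgeR at the high doses of Yijin-tang (against 1.05% of all genes), Liriopis seu Ophiopogonis Tuber (0.45%), Schisandrae Fructus (0.693%) and Zizyphi Semen (0.16%). Of the 8 genes, 3, 3, 4 and 2 had an unadjusted p under 0.05 there, and DESeq2 called 0, 1, 0 and 0. The percentages are those of edgeR, and none is given for DESeq2. The 8 medium and low dose groups without a call had 1 to 3 of 8 genes at an unadjusted p under 0.05. DESeq2 was not run on those groups. The share of all genes called was 0.42% with Yijin-tang medium dose, 0.237% and 0.101% with Soshiho-tang medium and low dose, 0.491% with Liriopis seu Ophiopogonis Tuber low dose, 0.16% with Schisandrae Fructus low dose, 0.0118% with Longan Arillus medium dose, and 0.0296% and 0.0355% with Zizyphi Semen medium and low dose.

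The count of called metallothioneins depended on the 2 libraries that stand apart. Without them, the biological coefficient of variation of MT1E was 8.00% in place of 17.4% and that of MT1X 8.07% in place of 18.8%. That spread is shared over all groups. In the 3 vehicle libraries, which all 18 comparisons share, MT1E had an SD of 11.6 CPM on a mean of 57.1 CPM. The calls that follow thus assume that the vehicle varies like the other groups. MT1E was then called lower in 13 of 18 dose groups, MT1X in 6 and MT2A in 1, and SLC39A10, MTF1, MT1F and MT1G in 0. For the high doses, where the background also rose, 4 of 8 genes were called with Yijin-tang (against 7.16% of all genes), 3 with Soshiho-tang (12.4%), 2 with Liriopis seu Ophiopogonis Tuber (4.85%), 3 with Schisandrae Fructus (6.17%), 2 with Longan Arillus (2.22%) and 1 with Zizyphi Semen (3.15%). For the medium and low doses the shares were 4.43% and 1.96% with Yijin-tang, 1.7% and 1.88% with Soshiho-tang, 5.57% and 6.21% with Liriopis seu Ophiopogonis Tuber, 5.8% and 4.69% with Schisandrae Fructus, 0.923% and 4.73% with Longan Arillus and 0.773% and 1.56% with Zizyphi Semen. Of the 8 genes 1 to 3 were called in each of these 12 groups. MT1E was among the called genes in 6 of the 6 high dose comparisons, at a log2 fold change of -0.34 to -0.62 (adjusted p = 0.000996 to 0.0416). MT1X was called lower with Soshiho-tang (-1.32), Liriopis seu Ophiopogonis Tuber (-0.97), Yijin-tang (-0.63) and Schisandrae Fructus (-0.63). Soshiho-tang high dose is 1 library in this fit, so its calls assume that it varies like the other groups, which supply the spread. MT2A was called lower with Yijin-tang at -0.43 (adjusted p = 0.0443).

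In the balance of short and long transcripts, many extract libraries lay below the vehicle and others within its range. The median log2 level of 1176 protein-coding genes with under 2000 bp of exon, less that of 6517 genes with 5000 bp or more, each relative to the median over libraries, was 0.00, 0.05 and 0.12 in vehicle replicates 1, 2 and 3. In the 56 extract libraries without Yijin-tang low dose replicate 2 it had a median of -0.01 (-0.06 to 0.18). Of these, 35 lay below the lowest vehicle library, 2 above the highest and the others within the vehicle range. The highest of the 56 was Soshiho-tang high dose replicate 3. The metallothioneins have 750 to 1889 bp of exon and SLC30A1 5474 bp. Among the vehicle libraries, MT1E, MT2A and MT1F were higher in replicates 2 and 3 than in replicate 1, while MT1G was at 0.365, 0.337 and 0.164 CPM and MT1X was lowest in replicate 2. SLC30A1 was highest in replicate 2 and lowest in replicate 3, so not all of these genes were in the order of this measure. Taken alone, its long genes had medians of -0.035, -0.014 and -0.105 in replicates 1, 2 and 3, the order of SLC30A1. Its short genes had medians of -0.035, 0.037 and 0.015, the order of MT1E but not of MT2A, MT1F, MT1G or MT1X. The part of this measure in the comparisons with the vehicle was not tested.

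**Figure D2:**
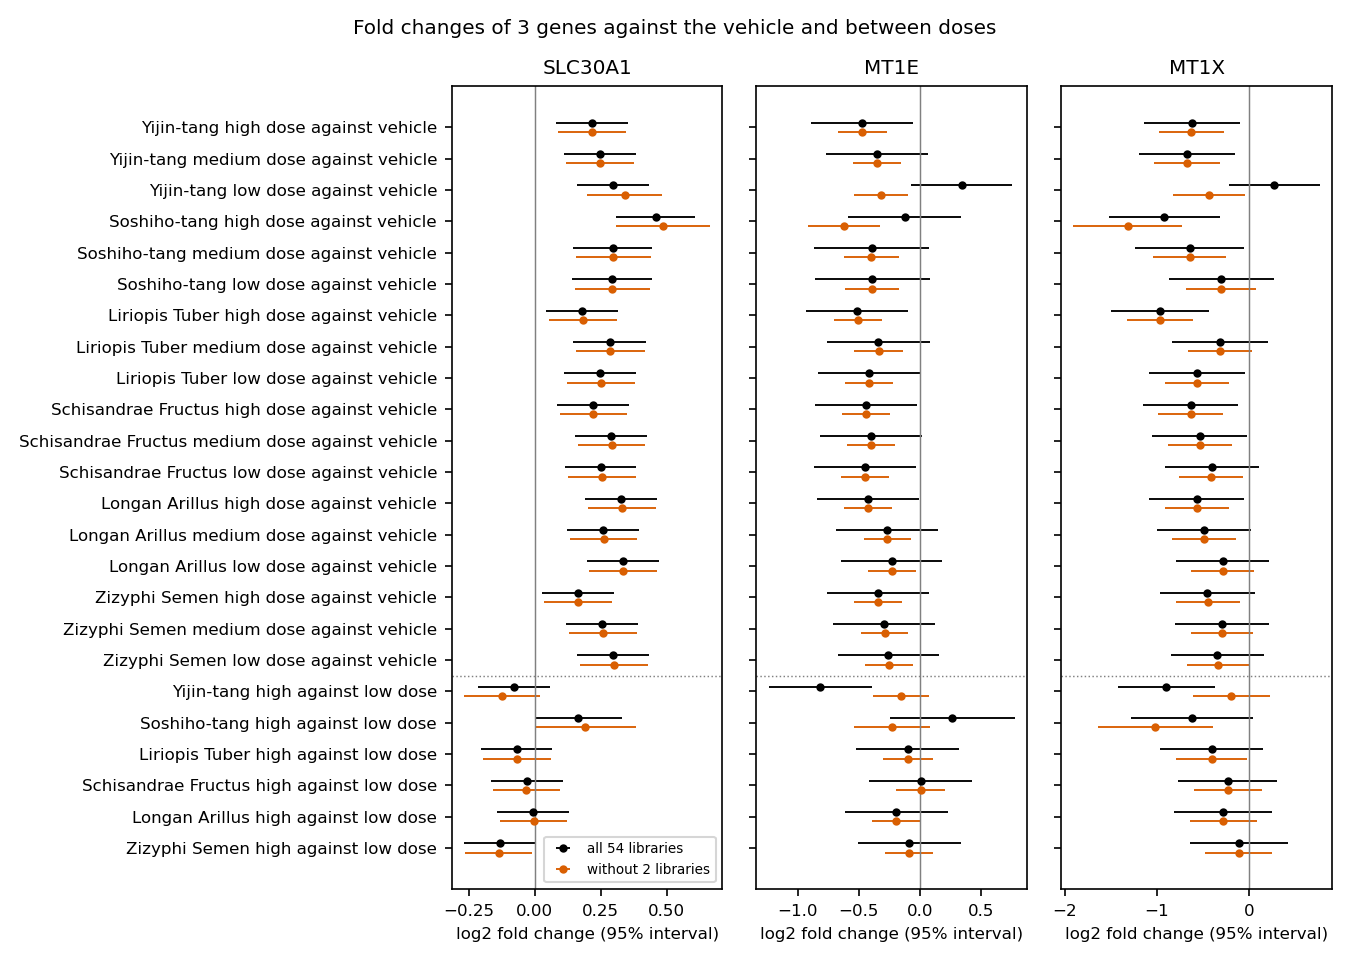
Log2 fold change (x axes) of SLC30A1, MT1E and MT1X for 18 extract doses against the vehicle and 6 high against low doses (y axis, split by the dotted line), with 95% intervals. Black is the fit of all 54 libraries and orange the fit that leaves out the 2 libraries that stand apart. SLC30A1 lies above 0 in 18 of 18 comparisons with the vehicle, and the intervals of MT1E and MT1X narrow without the 2 libraries.

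SLC39A10 and MTF1 were called in 0 of 18 comparisons with the vehicle by edgeR, with an unadjusted p under 0.05 in 1 and 0. SLC39A10 was at 35.7, 37.4 and 34.2 CPM in the vehicle and had a median of 35.4 CPM over all libraries. MTF1 was at 40.5, 38.1 and 36.5 CPM, with a median of 40.6. At the high doses the log2 fold change was -0.13 to 0.10 for SLC39A10 and -0.02 to 0.16 for MTF1, with extract libraries on both sides of the vehicle. In the fit that leaves out those 2 libraries the 95% intervals at the high doses ran from -0.24 to 0.21 for SLC39A10 and from -0.14 to 0.36 for MTF1. MT1F had a log2 fold change below 0 in 18 of 18 comparisons and MT1G in 14, with 0 calls by edgeR at these low counts and an unadjusted p under 0.05 in 8 and 2. DESeq2 called 0 of these 4 genes in the 6 high dose comparisons with the vehicle.

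Within extracts, the calls between doses of Yijin-tang rested on 1 library. For Yijin-tang high against low dose 5 of 8 genes were called, against 21% of all genes tested. MT1E was at 42.3, 42.7 and 40.7 CPM at the high dose and at 49.8, 117 and 45.4 at the low dose, a difference of -0.82 ± 0.21 (adjusted p = 0.00896). MT2A was at 18.9, 18.7 and 14.9 against 22.5, 55.1 and 23.2 CPM, at -0.99 (adjusted p = 0.00546), and MT1X at 1.28, 2.47 and 1.71 against 2.05, 5.55 and 2.14 CPM, at -0.90 (adjusted p = 0.0160). The importer SLC39A10 was at 35.0, 40.6 and 41.1 against 35.7, 12.2 and 36.4 CPM, at 0.46 (adjusted p = 0.0244), and MTF1 at 41.0, 41.8 and 45.1 against 41.3, 24.1 and 39.4 CPM, at 0.27 (adjusted p = 0.0245). In each of the 5 genes replicate 2 of the low dose was the extreme value. Without the 2 libraries 0 of 8 genes were called, against 0.652% of all genes, 2 had an unadjusted p under 0.05, and MT1E differed by -0.15 ± 0.11 (adjusted p = 0.702) and MT2A by -0.35 ± 0.15 (adjusted p = 0.407).

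In that library short and long transcripts split the genes. Its ratio to the mean of replicates 1 and 3 was 2.46 for MT1E, 2.41 for MT2A, 2.65 for MT1X, 1.86 for MT1G and 1.57 for MT1F. SLC30A1 stood at 0.806, MTF1 at 0.596 and SLC39A10 at 0.338, and these 3 genes have 5474, 8024 and 6917 bp of exon. Protein-coding genes with under 1000 bp of exon had a median ratio of 1.74 (175 genes), those with 1000 to 1999 bp 1.59 (1001 genes), those with 2000 to 4999 bp 1.03 (5354 genes) and longer ones 0.708 (6517 genes). MT1E, MT2A and MT1X thus lay above the medians of both classes under 2000 bp, and SLC39A10 below that of its own. Exon length here joins all annotated exons of a gene and can exceed the length of the transcript present. Whether these 3 genes exceeded transcripts of their own length was therefore not tested. MT2A and MT1E were both high in it, and MT2A held 32.0% of their joint counts, within the range of the other libraries.

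**Figure D3:**
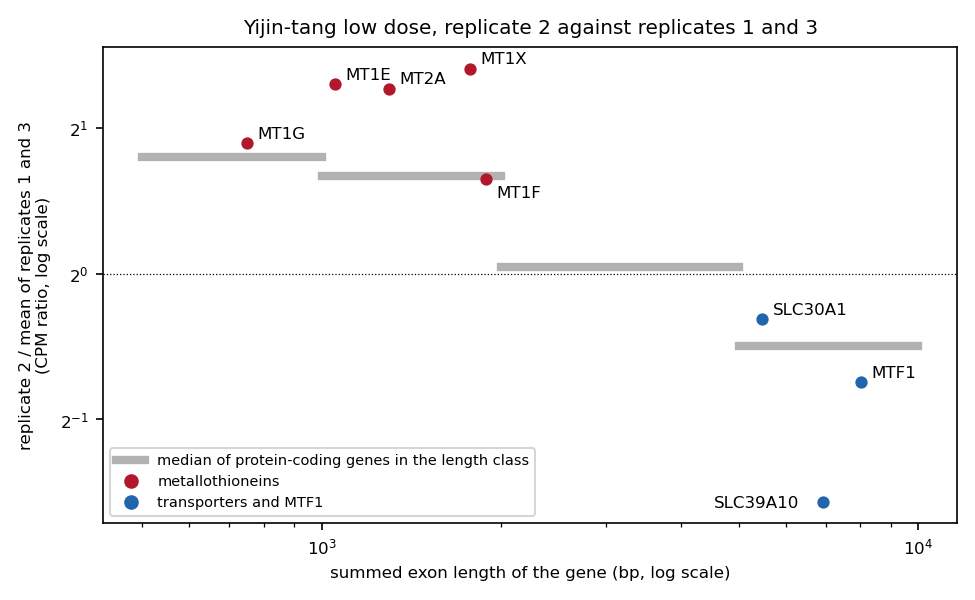
CPM ratio of Yijin-tang low dose replicate 2 to the mean of replicates 1 and 3 (y axis, log scale) against the exon length of the gene (x axis, log scale). Red points are metallothioneins, blue points SLC30A1, SLC39A10 and MTF1, and grey bars the median ratio of protein-coding genes in 4 length classes, from 1.74 for the shortest to 0.708 for the longest.

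For the other extracts 0 of 8 genes were called between high and low dose with edgeR. The background was 6.29% of all genes for Soshiho-tang, 0% for Liriopis seu Ophiopogonis Tuber, 0.189% for Schisandrae Fructus, 0.0178% for Longan Arillus and 0.0533% for Zizyphi Semen. Of the 8 genes, 1, 1, 0, 1 and 0 had an unadjusted p under 0.05, and DESeq2 called 0 in each. Soshiho-tang is the extract whose high dose had a wide spread: MT1E was at 36.5 and 67.9 CPM in replicates 2 and 3 and at 49.0 and 42.1 at the low dose, a difference of 0.27 ± 0.25. Without replicate 3 of the high dose and Yijin-tang low dose replicate 2 the MT1E difference was -0.23 ± 0.16 (adjusted p = 0.436), so its sign turned. MT1X was then called lower at the high dose, at -1.02 (adjusted p = 0.0336), with 1.08 CPM in the 1 high dose library left against 2.27 and 2.35. With 1 library in that arm the spread comes from other groups, and the lone library is assumed to vary like them. In that fit 7.84% of all genes were called. In the other 4 extracts 0 of 8 genes were called between doses in that fit, against 0% of all genes for Liriopis seu Ophiopogonis Tuber, 0.519% for Schisandrae Fructus, 5.45% for Longan Arillus and 0.242% for Zizyphi Semen, with 2, 0, 1 and 1 at an unadjusted p under 0.05. Between Schisandrae Fructus and Liriopis seu Ophiopogonis Tuber at the high dose 0 of 8 genes were called (0.0947% of all genes), with 0 at an unadjusted p under 0.05 and 0 by DESeq2. Between Longan Arillus and Zizyphi Semen it was 0 of 8 (0.0237%), with 1 at an unadjusted p under 0.05, SLC30A1 at 0.16 (interval 0.03 to 0.30), and 0 by DESeq2.

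Aucklandiae Radix high dose, 1 library and so without a test, held the extremes of 3 of the 8 genes. How many of all genes had their extreme in this library was not computed. Of all genes, 11% were beyond 2-fold from the vehicle mean in it. MT1E was at 22.5 CPM, the lowest of all libraries, and MT2A at 33.2 CPM, above all libraries but Yijin-tang low dose replicate 2. SLC30A1 at 47.3 and SLC39A10 at 41.7 CPM were the highest of all, and MTF1 at 46.5 CPM was exceeded by Polygalae Radix high dose alone. The 2 main metallothioneins thus lay at opposite ends of their ranges, while exporter, importer and sensor were all at or near the top of their range.

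As log2 ratios to the vehicle mean (with 0.5 CPM added), MT1E was at -1.33, MT2A at 0.51, SLC30A1 at 0.62, MT1X at -0.70 and MTF1 at 0.27. MT1E was the 1 gene of 8 beyond 2-fold, against 11% of all genes in this library. At the medium dose MT1E was at 39.2, MT2A at 17.7 and SLC30A1 at 35.2 CPM, and at the low dose at 44.3, 19.3 and 39.8 CPM. None of the 8 genes was beyond 2-fold there, against 0.32% and 0.255% of all genes, and MT2A was 31.0% and 30.3% of the joint counts of MT2A and MT1E. With other scalings of the high dose library (TMM and RLE, chosen after the data were seen) MT1E was at -1.24 and -1.23, MT2A at 0.59 and 0.60 and SLC30A1 at 0.71 and 0.72.

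MT2A made up 59.7% of the joint counts of MT2A and MT1E in Aucklandiae Radix high dose (853 of 1430 counts, exact 95% binomial interval 57.1% to 62.2%, which covers counting error only). In the other 59 libraries the share was 26.7% to 33.9% with a median of 30.3%. The 2 libraries that stand apart lay inside that range. The 12 metallothionein genes summed to 57.4 CPM here, below the vehicle libraries (65.2, 91.7 and 97.4 CPM) and the median of 67.4 CPM over all libraries. Only Soshiho-tang high dose replicate 2 was lower, at 54.3 CPM. The highest sum was 181 CPM in Yijin-tang low dose replicate 2. Across the 25 group means MT1E and MT2A had a Pearson correlation of -0.17, and of 0.81 without Aucklandiae Radix high dose and Yijin-tang low dose (23 groups), as a description of means that share vehicle, sets and processing.

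**Figure D4:**
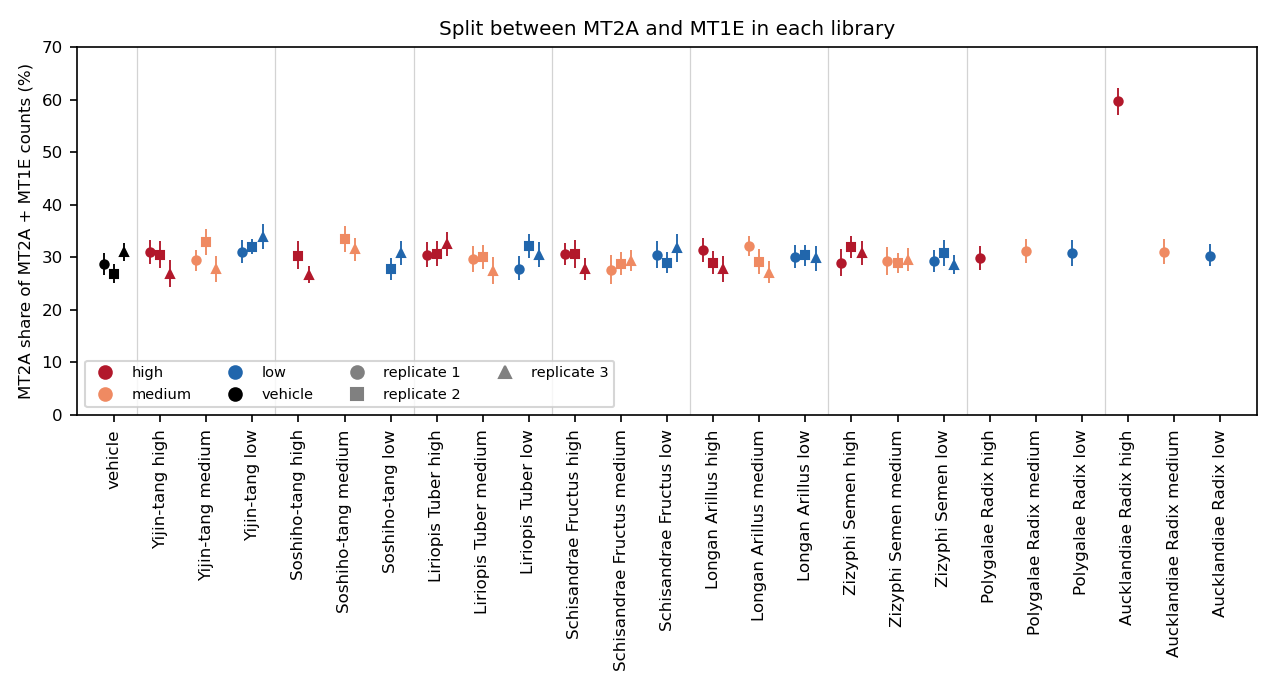
MT2A as a percent of MT2A and MT1E counts (y axis) in each library by group (x axis), with exact 95% binomial intervals. Colours mark the dose and shapes the replicate number. Aucklandiae Radix high dose is at 59.7%, and the other 59 libraries lie between 26.7% and 33.9%.

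Several other zinc and copper genes of that library also left the range of the other 59. The share of all genes outside that range was not computed. Beyond 2-fold from the vehicle mean were 11% of all genes, 4.72% higher and 6.31% lower. Of 12 SLC39 importers tested, SLC39A8 (ZIP8, a zinc and manganese importer) was at 8.10 CPM against 24.8 to 36.3 elsewhere, and SLC39A5 at 0.545 against 1.42 to 3.49. SLC39A11 was at 35.7 CPM against 8.87 to 15.4, and SLC39A13, a zinc transporter of the secretory pathway, at 35.8 against 19.3 to 27.6. SLC39A6 (80.7 against 40.8 to 73.5) and SLC39A14 (84.8 against 36.3 to 81.5) also lay above the others. SLC39A1 lay below them (109 against 136 to 178). Of 13 copper genes, 2 were beyond 2-fold, both higher: ATP7A, a copper-exporting ATPase, at 58.7 CPM (vehicle 28.7) and SLC31A2 at 4.57 (vehicle 1.52). The copper gene SCO1 lay below the other libraries, at 29.2 CPM against 35.1 to 46.3. Of 7 SLC30 exporters tested 0 were beyond 2-fold, with SLC30A1 and SLC30A6 (69.8 against 45.8 CPM in the vehicle) the highest by ratio. SLC30A5 was at 59.7 CPM, against 41.9 to 54.3 in the other libraries. Of 6 metallothioneins tested 2 were beyond 2-fold, both lower, MT1E and MT1A, which had 0 counts here and 0.592 CPM in the vehicle. Of 10 stress genes that metals and electrophiles induce, 5 were beyond 2-fold higher, among them the heme oxygenase HMOX1 at 61.4 against 10.9 CPM and the thioredoxin reductase TXNRD1 at 1332 against 318 CPM. Of 6 tested genes that glucocorticoids induce, 2 were beyond 2-fold higher, the phosphatase gene DUSP1 at 17.6 against 5.24 CPM and the transcription factor gene KLF9 at 7.63 against 2.50 CPM. Gut markers also left their range in this library: KRT20 was at 656 CPM (vehicle 234) and CDX2 at 1.09 CPM (vehicle 4.42), and their part in the pattern was not tested.

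**Figure D5:**
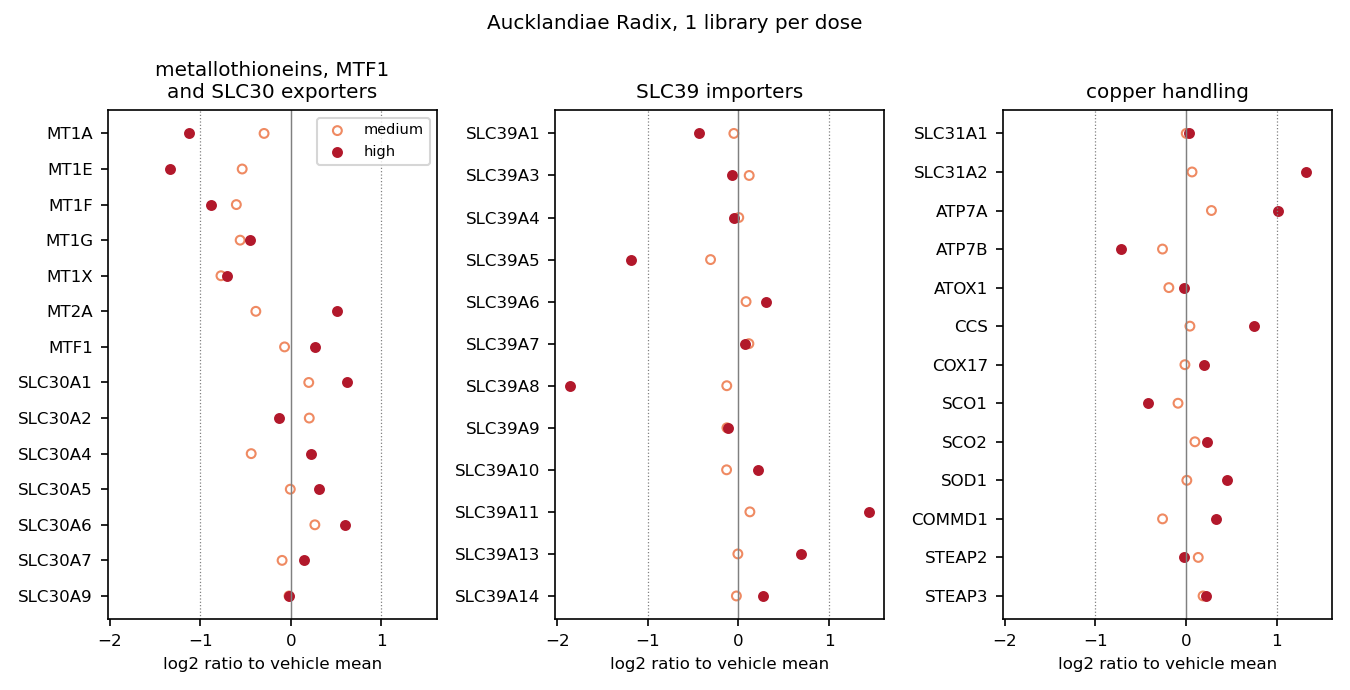
Log2 ratio of CPM in Aucklandiae Radix high (filled) and medium dose (open) to the vehicle mean (x axes, 0.5 CPM added), for metallothioneins, MTF1 and SLC30 exporters (left), SLC39 importers (middle) and copper genes (right). Each point is 1 library, dotted lines mark 2-fold, and MT1E (-1.33) and MT2A (0.51) lie on opposite sides of 0 at the high dose.

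Polygalae Radix, also with 1 library per dose, left the metallothioneins near the other extracts. From high to low dose MT1E was at 43.5, 41.5 and 42.9 CPM, MT2A at 18.4, 18.7 and 19.1 CPM and SLC30A1 at 40.1, 40.3 and 41.2 CPM. SLC30A1 was above all 3 vehicle libraries at each dose. By CPM, MTF1 was highest of 60 libraries at the high dose, at 47.4 CPM against 35.8 and 39.3 at the medium and low dose. SLC39A10 was at 29.6 against 34.1 and 35.9 CPM. None of the 8 genes was beyond 2-fold at any dose, against 0.87%, 0.403% and 0.302% of all genes. TMM scaling shifted the median of all genes by -0.10 (log2) at the high dose and left the sign of all 8 genes there. At the low dose it turned the sign of SLC39A10 and MTF1, which lay near 0. The same scaling shifted the median by 0.07 in Aucklandiae Radix high dose, where MTF1 was at 46.5 CPM. The rank of MTF1 after scaling is not given here.

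Around these genes, the rest of the zinc and copper system showed few calls in the replicated high dose groups. Of all genes tested, 0.0829% to 7.93% were called in these 6 comparisons, and at such shares short lists hold few calls in any case. Against the vehicle with all 54 libraries, 0 of 12 tested SLC39 importers and 0 of 13 copper genes were called by edgeR in 6 of 6 extracts, with 0 to 1 of each list at an unadjusted p under 0.05. DESeq2 was not run on these lists. Among 7 tested SLC30 exporters SLC30A1 was called with Soshiho-tang and Longan Arillus and SLC30A7, a Golgi zinc transporter, with Soshiho-tang at 0.22 ± 0.07 (adjusted p = 0.0337). The median log2 fold change of the 6 tested metallothioneins was -0.70 to -0.37 over the 6 extracts. For all genes tested it was -0.01 to 0.00, with the vehicle libraries shared by all 6 extracts. Of the 6 metallothioneins, MT1A, MT1F and MT1G had median levels of 0.592, 0.383 and 0.203 CPM over all libraries. The fold changes of such low genes are poorly determined. Without the 2 libraries that stand apart, SLC39A1 was called lower with Schisandrae Fructus and the copper exporter ATP7A higher with Yijin-tang, Schisandrae Fructus and Longan Arillus. In that fit 7.16% of all genes were called with Yijin-tang, 6.17% with Schisandrae Fructus and 2.22% with Longan Arillus.

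Stress genes that share inducers with metallothioneins had calls in each extract. Of 10, the counts higher and lower were 6 and 1 with Soshiho-tang, 4 and 1 with Schisandrae Fructus, 3 and 3 with Yijin-tang, 2 and 2 with Longan Arillus, 0 and 2 with Liriopis seu Ophiopogonis Tuber and 0 and 3 with Zizyphi Semen. The share of all genes called in these comparisons was 7.93%, 0.693%, 1.05%, 0.0829%, 0.45% and 0.16% in the same order. HMOX1 rose by 1.16 ± 0.11 with Soshiho-tang high dose (adjusted p = 9.94e-11) and by 0.76 ± 0.10 with Schisandrae Fructus (adjusted p = 6.27e-06). No metallothionein was called higher in these 2 comparisons. The heat shock gene DNAJB1 was lower than in the vehicle in 6 of 6 extracts, by 0.45 with Yijin-tang. All 6 comparisons share the vehicle libraries, so effects of extract and library set cannot be told apart here. Of the 6 tested glucocorticoid-induced genes, 0 were called by edgeR in 6 of 6 replicated extracts, with 0 to 1 at an unadjusted p under 0.05.

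The genes whose group means were most like those of 3 members were taken over the 25 groups on log2(CPM + 0.5). For MT1X they were SPINK1 (Pearson r = 0.82), SMIM31 (0.81) and PIN4 (0.79), and without Aucklandiae Radix high dose and Yijin-tang low dose the values were 0.76, 0.77 and 0.74. For SLC30A1 they were PMPCA (0.80), TWF1 (0.78) and ZNF513 (0.77), with 0.72, 0.69 and 0.63 over the 23 groups. For MT2A they were DYNLL1 (0.89), PDZD11 (0.89) and SLC50A1 (0.88), which dropped to 0.64, 0.58 and 0.42, so the likeness to MT2A rested largely on those 2 groups.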

How the data were processed

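RNA-seq of HT29 cells was taken up from a table of expected counts per Ensembl gene that the authors deposited. Per the submitters' processing notes, reads were handled with Trim Galore 0.6.5, FastQC 0.11.9, STAR 2.7.3a and RSEM 1.3.3 on GRCh38. The annotation release and strand setting are not given in the sources used here. Symbols and loci came from GENCODE release 29, and promoter sequences from RefSeq. Groups came from the sample labels. The 8 genes and the gene lists were chosen with earlier results of these data known.

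CPM was the expected count over the library total. Expected counts were rounded and fitted with edgeR 4.0.16 (R 4.3.3, TMM, filterByExpr, quasi-likelihood test) over 54 libraries in 19 groups, with 27 comparisons and Benjamini-Hochberg adjustment over 16890 genes at 0.05. The biological coefficient of variation was 9.71%, and 4.76% without the 2 libraries that stand apart. The 6 libraries without replicates were compared with the vehicle mean as log2 ratios with 0.5 CPM added and no test. The scripts were tested on simulated data. Nothing in the labels says that replicates were separate cultures, so p-values measure the spread between these libraries, which may be technical.

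Named genes were all 8 members, up to 4 called genes per list with the smallest p in each high dose comparison, and the 3 protein-coding genes most correlated with MT1X, MT2A and SLC30A1. For the single library of Aucklandiae Radix high dose, some of the list genes past 2-fold or outside the range of the other libraries were named. They were picked after their values were seen. Alternatives were DESeq2 1.42.0, RLE size factors, no filter on low counts, a replicate block, only the 2 groups compared, and libraries left out. Shares of all genes called are those of edgeR. The wortmannin control that the series text names was not analysed here.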

Additional observations from a re-analysis of the deposited data

How the results depend on the processing

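No direction of a called result turned under any alternative. The number of the 8 genes called changed in 8 of 15 comparisons without the 2 libraries that stand apart: from 0 to 4 for Yijin-tang high dose against the vehicle, 2 to 3 for Soshiho-tang, 0 to 2 for Liriopis seu Ophiopogonis Tuber, 0 to 3 for Schisandrae Fructus, 1 to 2 for Longan Arillus, 0 to 1 for Zizyphi Semen, 5 to 0 for Yijin-tang high against low dose and 0 to 1 for Soshiho-tang high against low dose. The calls over all genes went from 177 to 1240 for Yijin-tang high dose. With only the 2 groups compared, the number fell from 2 to 0 for Soshiho-tang high dose and from 1 to 0 for Longan Arillus. For Yijin-tang high against low dose it fell from 5 to 0. Such a fit holds fewer libraries and takes its spread from those 2 groups alone. With no filter on low counts the number was 0 for Longan Arillus. DESeq2 gave 1 for Liriopis seu Ophiopogonis Tuber high dose and 1 for Yijin-tang against Soshiho-tang. RLE size factors moved none of the 15 counts. The cause of the changes in number was not tested.

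With 1 library left out, the number ranged from 0 to 1 for Yijin-tang, Schisandrae Fructus and Longan Arillus high dose, from 1 to 2 for Soshiho-tang high dose and from 0 to 6 for Yijin-tang high against low dose. The 0 for the last came without Yijin-tang low dose replicate 2, and leaving out high dose replicate 2 gave 3 and high dose replicate 3 gave 2.

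A replicate block changed none of the 15 counts, with 0 of 8 genes called for Yijin-tang high dose and 2 of 8 for Soshiho-tang high dose. Over all genes it called 188 and 1359, beside 177 and 1339 without the block. The replicate numbers did not pair the libraries: in 0 of 27 comparisons did all same-numbered pairs correlate over 0.1, and in 0 of 22 with 3 pairs did every library correlate best with its own number. Depth limits MT1F and MT1G, with 1 to 27 and 1 to 12 counts in a library.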
